A study of Rattus norvegicus with 36 samples.

Results

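The genes described here carry out the urea cycle and the breakdown of amino acids in the liver. There were 42 of them among the 14217 genes that the rat array names with a probe set of 1 gene. All 42 were measured, by 61 probe sets. For a gene with several, the probe set with the highest mean stands for it; 29 of the 42 had a single one. The liver RNA came from male Sprague Dawley rats (Harlan) that were 7 weeks old at the start. They were given the halogenated flame retardant HCDBCO by gavage on 5 days, with corn oil as the carrier and corn oil alone for the vehicle group. The daily doses were 541 mg/kg, 54.1 mg/kg, 5.41 mg/kg, 0.54 mg/kg and 0.05 mg/kg. Each of the 6 groups held 6 samples of the left liver lobe, collected the day after dosing ended. Values were taken as log2 expression values, so that a difference of 1 is a doubling.

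The urea cycle turns the ammonia that amino acid breakdown releases into urea. It runs mainly in the hepatocytes around the portal veins. Amino groups reach it from glutamate, which glutamate dehydrogenase and the transaminases make and consume, and from glutamine, which glutaminase splits. The carbon skeletons then leave by routes specific to each amino acid. Histidine goes by way of urocanate to glutamate. Leucine, isoleucine and valine pass through a mitochondrial dehydrogenase complex, and tyrosine goes to fumarate and acetoacetate.

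Of these 42 genes, Glud1, the mitochondrial glutamate dehydrogenase, fell at 541 mg/kg. Glud1 also fell, together with Hal, in a linear trend over the dose order. Hal is histidine ammonia-lyase, the first enzyme of histidine breakdown. Ddc, the aromatic L-amino acid decarboxylase, rose in that trend and in the comparison of the 2 highest with the 3 lowest doses. The remaining 39 passed the false discovery rate (FDR) of 5% in none of the comparisons with vehicle, the comparison of high with low doses, the trend or the test of any difference among the groups. Differences among the 42 ran from -0.49 to 0.29 at 541 mg/kg. Here and below, adjusted p-values are from limma with Benjamini-Hochberg adjustment over 31042 probe sets. The ± after a difference gives the standard error from the limma fit.

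The counts by dose were as follows. At 0.05, 0.54 and 5.41 mg/kg no member passed, and neither did any probe set of the array (0%). At 0.05 mg/kg 1 member, Glud1, had an unadjusted p under 0.05, where 3.02% of all probe sets did. None did at 0.54 mg/kg, against 4.18% of all probe sets. At 5.41 mg/kg there were 5, all lower (Glud1, Hal, Uroc1, Aass and Dpys), or 11.9% of the members. Of all probe sets 4.83% did so in either direction, and 2.46% were lower. No member passed the FDR at 54.1 mg/kg, as 0.0741% of all probe sets did. Of the members, 9 were lower at an unadjusted p under 0.05, against 4.68% of all probe sets, and 1 was higher (Amt), against 4.52%. One step up, at 541 mg/kg, 1 of 42 passed, Glud1, against 0.155% of all probe sets. There, 8 members were lower at an unadjusted p under 0.05, or 19% against 4.58% of all probe sets, and 3 were higher (Ddc, Hibch and Amt), or 7.14% against 4.49%. These counts of lower members rested partly on single samples. At 5.41 mg/kg the count was 0 without replicate 6 and 1 to 6 without any 1 of the others. At 54.1 mg/kg it was 6 without vehicle replicate 1 or 3 or without replicate 5, 15 without replicate 6 and 7 to 13 otherwise, and at 541 mg/kg it was 5 without replicate 4 and 7 to 9 otherwise.

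Direction was counted over every member, whether or not it passed. At 54.1 mg/kg 32 of 42 were lower than vehicle, with a median difference of -0.07. Of all probe sets 45.9% were lower there, with a median of 0.01, and of those brighter than the median probe set 52.2%. In that group the array of replicate 5 stood apart, with an interquartile range of 3.15 against 3.32 to 3.51 for the 35 others. It was the lowest of its group in 25 of the 42 members, or 59.5%, against 25.8% of all probe sets and 43.1% of those brighter than the median one. Without it 29 of 42 members were lower at 54.1 mg/kg, with a median of -0.05, and 47.7% of all probe sets. The highest dose had 26 of 42 lower, with a median of -0.05, while 46.7% of all probe sets and 52.2% of those brighter than the median probe set were lower. The members were also mostly lower at doses where nothing passed. They were 33 of 42 at 0.05 mg/kg, 27 of 42 at 0.54 mg/kg and 35 of 42 at 5.41 mg/kg. Of all probe sets 49.5%, 47.8% and 47.9% were lower at these doses, and of the brighter ones 52.2%, 57.5% and 54.8%. Without replicate 4 of 0.54 mg/kg, 19 of 42 were lower at that dose. All 5 dose groups were set against the same 6 vehicle samples.

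**Figure D1:**
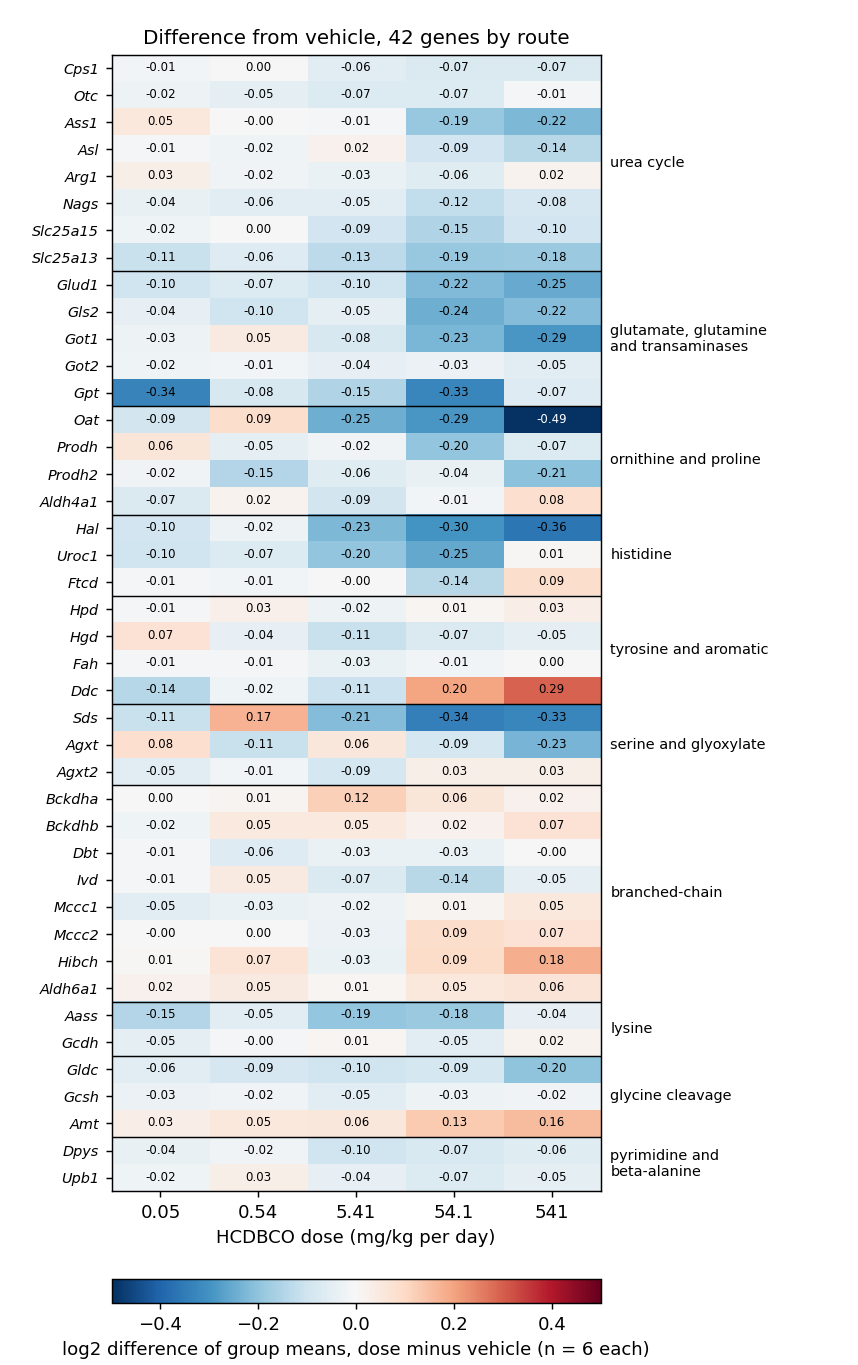
Log2 difference of the group mean from vehicle for the 42 genes (rows, by route) at each HCDBCO dose (columns, n = 6 samples per group); blue is lower and red is higher than vehicle. The glutamate and transaminase rows are all 5 below 0 at 54.1 and 541 mg/kg, while 6 of 8 branched-chain genes are pale red there.

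Glud1 was called in more comparisons than any other member. In vehicle livers Glud1 ran from 12.76 to 12.95, with a median of 12.83. At 0.05, 0.54 and 5.41 mg/kg the medians were 12.74, 12.77 and 12.76, and each of these groups overlapped vehicle. The 54.1 mg/kg samples lay between 12.56 and 12.69, with a median of 12.62. Those at 541 mg/kg lay between 12.47 and 12.68, with a median of 12.63. So every sample of the 2 highest doses was below every vehicle sample. Such a gap downward was found in 1 member at 54.1 mg/kg, Glud1, and in 0.37% of all probe sets. Members with it at 541 mg/kg were 2, Glud1 and Ass1, against 0.351% of all probe sets. No member's samples all lay above vehicle at either dose, as 0.226% and 0.393% of all probe sets did.

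Glud1 fell by 0.25 ± 0.048 at 541 mg/kg, a 1.19-fold lower level (adjusted p = 0.0122). At 54.1 mg/kg the difference was -0.22 ± 0.048 and just missed the threshold (adjusted p = 0.0535). The trend, a slope per step in the order of the 6 groups, was -0.05 ± 0.008 (adjusted p = 0.00179), and it was the call with the smallest adjusted p among the members. In the trend 3 of 42 members passed, against 0.715% of all probe sets. A test of any difference among the 6 groups called Glud1 alone among the members (adjusted p = 0.044), against 0.0999% of all probe sets. A second, dimmer Glud1 probe set had the same direction, with -0.26 at 54.1 mg/kg (adjusted p = 0.0323) and -0.23 at 541 mg/kg (adjusted p = 0.0534). The call at 541 mg/kg was lost without replicate 4 of that dose (adjusted p = 0.0614), and with only the 2 groups compared in the fit (adjusted p = 0.144). That at 54.1 mg/kg was gained without vehicle replicate 3 (adjusted p = 0.046). The trend passed in all 36 fits that left out 1 sample, and the test of any difference in 10 of 36.

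None of the other 4 genes of glutamate and glutamine passed the FDR. Gls2, the liver glutaminase, ran from 10.54 to 10.78 in vehicle, from 10.02 to 10.68 at 54.1 mg/kg and from 10.25 to 10.60 at 541 mg/kg. The groups overlapped. Its differences were -0.24 ± 0.086 and -0.22 ± 0.086 (adjusted p = 0.353 and 0.4), and without replicate 5 of 54.1 mg/kg the first was -0.16. Got1, the cytosolic aspartate aminotransferase, had a median of 9.80 in vehicle, 9.65 at 54.1 mg/kg and 9.56 at 541 mg/kg. All 6 samples at 541 mg/kg were below the vehicle mean, with a difference of -0.29 ± 0.11 (adjusted p = 0.355). Got2, its mitochondrial counterpart, differed by -0.05 there, within a 95% interval from -0.14 to 0.03. Gpt, the alanine aminotransferase, varied most of all members between samples of one group, with a residual SD of 0.43. Its interval at 541 mg/kg, from -0.53 to 0.40, spans both directions.

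The promoters of the 2 genes that passed in the comparison of high with low doses are given with their base composition. RefSeq windows of 300 bases (250 before to 50 after the start, build GRCr8) were found for 34 of the 42 genes, 38 windows in all. That of Glud1, at chr16:9646319-9646618 on the plus strand, held 78% G and C. Ddc has 3 windows, and the one at chr14:90682734-90683033 on the minus strand, the one of them with a TATAAA, held 44.7%. The Ddc window was picked by its TATAAA, so its share does not stand for the other Ddc windows. The median over all 33469 windows was 51.7%, and over the 38 windows of the members 55.7%. In the sequences, written 5′ to 3′, capitals mark TATAAA on either strand.
Glud1: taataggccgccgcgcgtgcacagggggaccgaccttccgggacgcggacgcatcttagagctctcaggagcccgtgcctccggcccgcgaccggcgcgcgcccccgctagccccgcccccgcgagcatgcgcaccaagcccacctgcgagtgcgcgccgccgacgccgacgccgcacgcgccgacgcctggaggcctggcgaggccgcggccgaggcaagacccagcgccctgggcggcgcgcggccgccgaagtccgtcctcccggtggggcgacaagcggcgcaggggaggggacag
Ddc: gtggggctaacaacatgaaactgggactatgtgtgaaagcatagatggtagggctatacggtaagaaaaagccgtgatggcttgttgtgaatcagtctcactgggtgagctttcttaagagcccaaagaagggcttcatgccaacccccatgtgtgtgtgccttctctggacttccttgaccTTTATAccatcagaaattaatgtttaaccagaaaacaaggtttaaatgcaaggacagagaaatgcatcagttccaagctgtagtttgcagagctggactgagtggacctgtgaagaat
TATAAA was in 6 of the 38 windows, those of Agxt2, Aldh4a1, Amt, Ass1, Ddc and Ftcd, or 15.8% against 14.2% of all windows. CACACCC was in 5 (Agxt, Fah, Gcsh, Nags and Uroc1), or 13.2% against 7.08%. TGTTCT was in 3 (Agxt, Bckdhb and Ftcd), or 7.89% against 20.7%. TGACGTCA, TGACGCAA and TTGCGCAA were in none, and in 1.83%, 0.496% and 0.17% of all windows. Both strands were searched, and a match describes the letters only.

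In the urea cycle itself no gene passed the FDR. All 8 were lower than vehicle at 54.1 mg/kg, with a median of -0.11, and 7 of 8 at 541 mg/kg, with a median of -0.09. Ass1, argininosuccinate synthase, which joins citrulline to aspartate, differed most of them at 541 mg/kg. Its vehicle samples ran from 12.523 to 12.75 and the 541 mg/kg samples from 12.16 to 12.522, which leaves the ranges barely apart. Those at 54.1 mg/kg ran from 12.25 to 12.74 and overlapped vehicle. The differences were -0.19 ± 0.085 at 54.1 mg/kg and -0.22 ± 0.085 at 541 mg/kg (adjusted p = 0.493 and 0.363). Between the 2 highest and the 3 lowest doses Ass1 differed by -0.22 ± 0.055 (adjusted p = 0.0777). That difference passed without replicate 5 of 0.05 mg/kg, replicate 4 of 0.54 mg/kg or replicate 1 of 54.1 mg/kg (adjusted p = 0.0427, 0.0364 and 0.0343), as did the trend.

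The cycle also depends on mitochondrial carriers. Slc25a13, the aspartate-glutamate carrier citrin, had medians of 11.47 in vehicle, 11.23 at 54.1 mg/kg and 11.22 at 541 mg/kg. Its difference was -0.19 ± 0.075 at 54.1 mg/kg (adjusted p = 0.422) and -0.18 ± 0.075 at 541 mg/kg (adjusted p = 0.41). A second probe set gave -0.27 at 541 mg/kg. Slc25a15, the ornithine carrier, differed by -0.15 ± 0.061 at 54.1 mg/kg (adjusted p = 0.43) and -0.10 ± 0.061 at 541 mg/kg (adjusted p = 0.677). Its 5 other probe sets had differences from -0.25 to 0.15 at 541 mg/kg, and the one above 0 was the dimmest.

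None of the other 5 enzymes of the cycle passed either. Cps1, carbamoyl phosphate synthetase, which commits ammonia to the cycle, ran from 13.17 to 13.43 in vehicle and from 13.05 to 13.35 at 541 mg/kg, a difference of -0.07 ± 0.054. Its dimmer probe set gave -0.21 ± 0.12. Otc, ornithine transcarbamylase, differed by -0.01 with an interval from -0.11 to 0.08. Arg1, the arginase that releases urea, differed by 0.02, with an interval from -0.12 to 0.16. Asl, argininosuccinate lyase, differed by -0.14 ± 0.076 and Nags, which makes the activator of Cps1, by -0.08 ± 0.069. None of these 5 had an unadjusted p under 0.05 at 541 mg/kg.

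**Figure D2:**
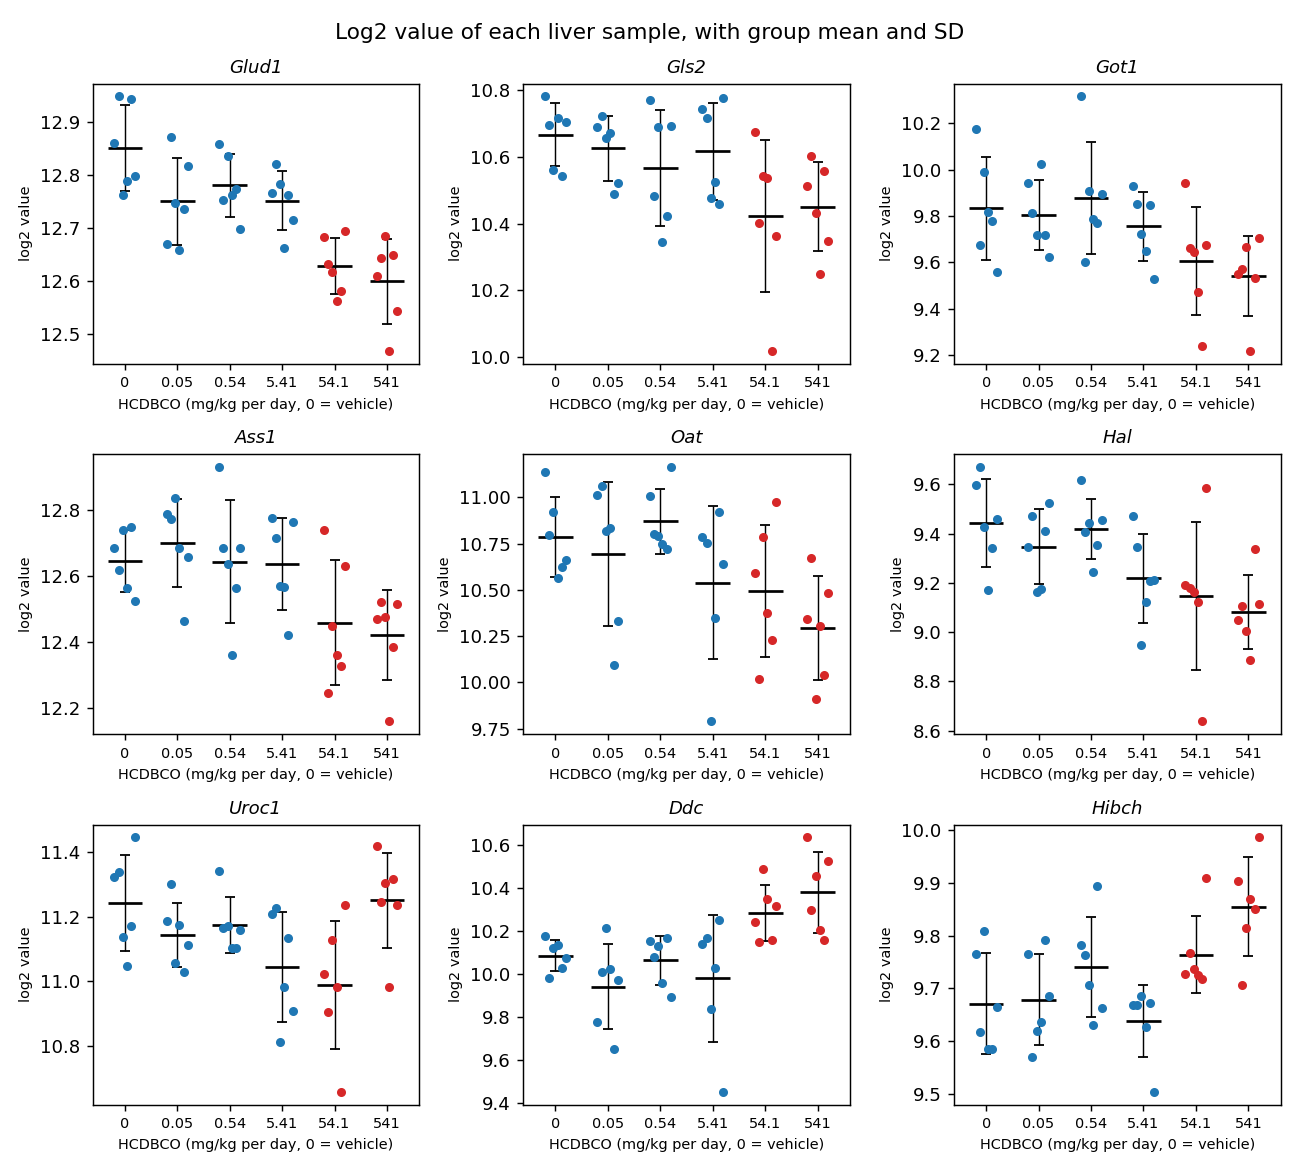
Log2 value (y axis) of each of the 36 liver samples by HCDBCO dose (x axis, 0 = vehicle) for 9 genes, with the group mean and SD (n = 6). Each point is 1 sample, red at the 2 highest doses. Glud1 at 54.1 and 541 mg/kg lies below all vehicle samples, and Ddc at those doses lies mostly above them.

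Ornithine can leave the cycle through Oat, ornithine aminotransferase, and this gene had the largest difference of all members at 541 mg/kg. Vehicle samples ran from 10.57 to 11.14 around a median of 10.73, and 541 mg/kg samples from 9.91 to 10.67 around 10.32. The groups overlapped, though all 6 treated samples were below the vehicle mean. The difference was -0.49 ± 0.17, a 1.41-fold lower level (adjusted p = 0.301). Single low samples also occurred at lower doses, with minima of 10.09 at 0.05 mg/kg and 9.79 at 5.41 mg/kg. The proline genes varied in sign at 541 mg/kg. Prodh and Prodh2, the proline and hydroxyproline dehydrogenases, differed by -0.07 and -0.21, and Aldh4a1, which finishes both routes, by 0.08. None of these 3 had an unadjusted p under 0.05 in any comparison with vehicle.

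The 3 histidine genes were all lower than vehicle at 54.1 mg/kg, and 1 of 3 was lower at 541 mg/kg. Hal ran from 9.17 to 9.67 in vehicle, with a median of 9.44. The medians were 9.38, 9.42, 9.21, 9.17 and 9.08 from the lowest to the highest dose. The 541 mg/kg samples ran from 8.89 to 9.34, and all 6 were below the vehicle mean, though the ranges overlapped. The difference was -0.36 ± 0.11 there (adjusted p = 0.189) and -0.30 ± 0.11 at 54.1 mg/kg (adjusted p = 0.353). Without replicate 5 of 54.1 mg/kg the latter was -0.20 (adjusted p = 0.605). In the trend Hal fell by 0.07 ± 0.018 per dose step (adjusted p = 0.0378). Leaving out 1 sample kept this call in 25 of 36 fits. It was lost without vehicle replicates 1, 2, 3 or 6, replicates 2 or 6 of 0.05 mg/kg, replicate 4 of 54.1 mg/kg, or replicates 1, 2, 3 or 4 of 541 mg/kg, with adjusted p-values of up to 0.0822.

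Uroc1, urocanate hydratase, which acts on the product of Hal, ran from 11.05 to 11.45 in vehicle. It ran from 10.66 to 11.23 at 54.1 mg/kg, where all 6 samples were below the vehicle mean. At 541 mg/kg it ran from 10.98 to 11.42, close to the vehicle range. The difference was -0.25 ± 0.083 at 54.1 mg/kg (adjusted p = 0.302) and 0.01 ± 0.083 at 541 mg/kg (adjusted p = 0.988). Without replicate 5 of 54.1 mg/kg the first was -0.19. Ftcd, the formiminotransferase that ends the route in glutamate, had -0.14 ± 0.071 and 0.09 ± 0.071, and the first was -0.09 without replicate 5 of 54.1 mg/kg. The step from 54.1 to 541 mg/kg was 0.26 ± 0.083 for Uroc1 and 0.23 ± 0.071 for Ftcd. These values include replicate 5 of 54.1 mg/kg, which was the lowest of its group in both genes. Both steps failed the FDR (adjusted p = 0.791 and 0.775), and this contrast was chosen after the values were seen. For Hal the same step was -0.06 ± 0.11.

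**Figure D3:**
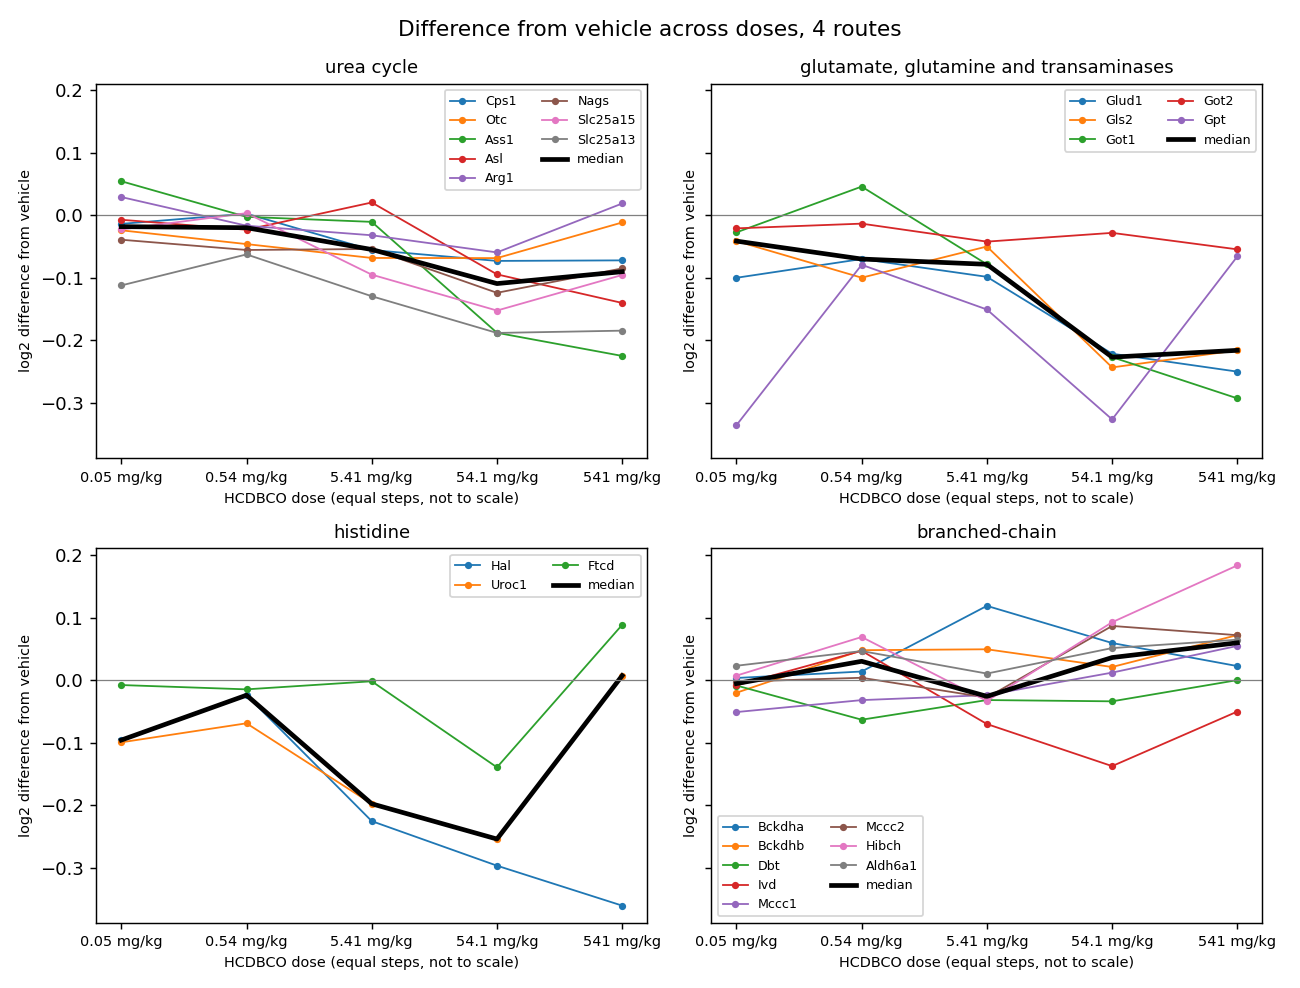
Log2 difference from vehicle (y axis) at the 5 HCDBCO doses (x axis, equal steps) for the genes of 4 routes; thin lines are genes and the black line is their median. The glutamate and transaminase median is -0.23 at 54.1 mg/kg and -0.22 at 541 mg/kg, and the branched-chain median stays near 0. Uroc1 and Ftcd return towards 0 or above it at 541 mg/kg while Hal does not.

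Ddc was the member that rose. Its vehicle samples ran from 9.98 to 10.17, those at 54.1 mg/kg from 10.15 to 10.49 and those at 541 mg/kg from 10.16 to 10.63. All 12 samples of the 2 highest doses were above the vehicle mean, with a slight overlap of the ranges. At the low doses some samples were far below vehicle, with minima of 9.65 at 0.05 mg/kg and 9.45 at 5.41 mg/kg. Ddc was higher at the 2 highest than at the 3 lowest doses, by 0.34 ± 0.065 or 1.26-fold (adjusted p = 0.0109). This call held in all 30 fits that left out 1 sample. Against vehicle Ddc differed by 0.20 ± 0.10 at 54.1 mg/kg and 0.29 ± 0.10 at 541 mg/kg (adjusted p = 0.559 and 0.289). A dim second probe set gave 0.07 ± 0.059 between high and low doses (adjusted p = 0.792). The slope of Ddc was 0.07 ± 0.017 per dose step (adjusted p = 0.0442), and it passed in 16 of 36 fits that left out 1 sample. It was lost without any 1 vehicle sample, without replicates 1, 4, 5 or 6 of 0.05 mg/kg, replicate 2 of 0.54 mg/kg, replicates 1, 3, 4 or 6 of 54.1 mg/kg or any sample of 541 mg/kg but replicate 5, with adjusted p-values of up to 0.111. It was also lost with each array centred on its median (adjusted p = 0.0606) and with the replicate number as a block (adjusted p = 0.052).

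The tyrosine route, in contrast, showed no call. Hpd, Hgd and Fah, the dioxygenases and the hydrolase that follow the tyrosine transaminase, differed by 0.03, -0.05 and 0.00 at 541 mg/kg. The intervals of all 3 lay between -0.20 and 0.15.

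In the comparison of the 2 highest with the 3 lowest doses, which leaves vehicle out, 2 of 42 members passed, against 0.287% of all probe sets. Glud1 fell by 0.15 ± 0.031 (adjusted p = 0.0241) and Ddc rose. At an unadjusted p under 0.05, 10 members were lower (Ass1, Asl, Slc25a15, Glud1, Gls2, Got1, Oat, Hal, Sds and Agxt), or 23.8% against 3.92% of all probe sets. There were 4 higher members (Ddc, Mccc2, Hibch and Amt), or 9.52% against 4.69%. The call on Glud1 was lost without replicate 3 or 4 of 54.1 mg/kg or replicate 4 of 541 mg/kg (adjusted p = 0.052, 0.0572 and 0.0658).

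**Figure D4:**
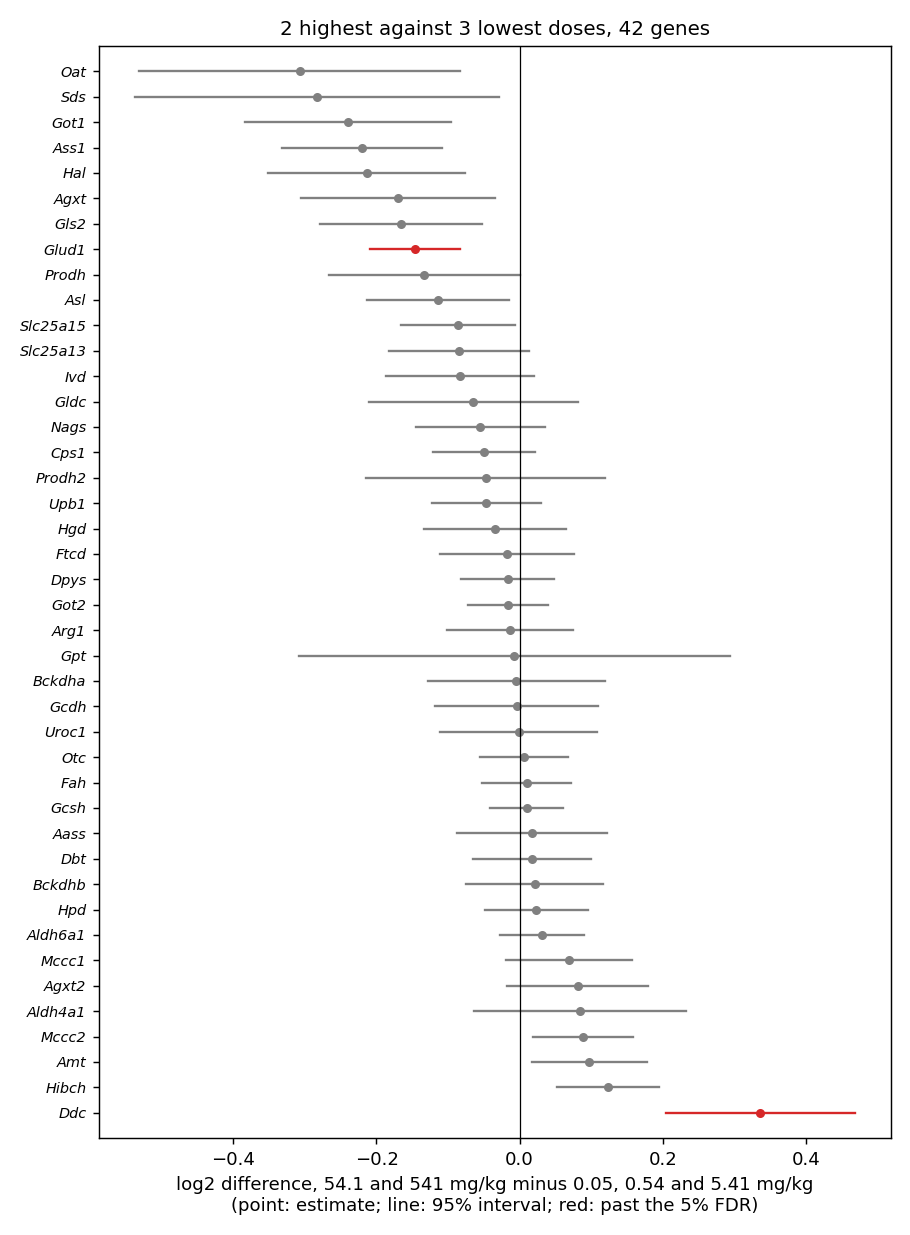
Difference in log2 expression between the 2 highest and the 3 lowest doses (x axis) for the 42 genes (y axis, by size), with 95% intervals; red marks those past the FDR of 5%. Glud1, at -0.15, and Ddc, at 0.34, are the 2 in red, and the genes with the lowest estimates include Oat and Sds, whose intervals are wide.

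The branched-chain route had no gene past the FDR, and 6 of its 8 genes were higher than vehicle at both 54.1 and 541 mg/kg. The medians of the route were 0.04 and 0.06. With 1 sample left out they ran from 0.0016 (without replicate 1 of 54.1 mg/kg) to 0.062, and from 0.019 (without vehicle replicate 4) to 0.069. Hibch, the hydrolase of valine breakdown, led. It ran from 9.59 to 9.81 in vehicle, from 9.72 to 9.91 at 54.1 mg/kg and from 9.71 to 9.99 at 541 mg/kg. All 6 samples of each of these doses were above the vehicle mean, and the ranges overlapped. Its difference at 541 mg/kg was 0.18 ± 0.055 (adjusted p = 0.192). The dehydrogenase complex genes differed by 0.02 (Bckdha), 0.07 (Bckdhb) and -7.2e-05 (Dbt). Mccc1 and Mccc2, the carboxylase subunits of leucine breakdown, differed by 0.05 and 0.07, Ivd, the dehydrogenase before them, by -0.05, and Aldh6a1, of valine breakdown, by 0.06. A dimmer Aldh6a1 probe set had the opposite sign, -0.06 ± 0.12, and so did a dimmer one of Bckdha, -0.20 ± 0.16.

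In the serine and glyoxylate group Agxt, the peroxisomal alanine-glyoxylate aminotransferase, had medians of 10.06 in vehicle, 10.08 at 54.1 mg/kg and 9.89 at 541 mg/kg. At 541 mg/kg the samples ran from 9.72 to 10.09 and vehicle from 10.01 to 10.55. The difference of -0.23 ± 0.10 did not pass (adjusted p = 0.469), and it was -0.15 without vehicle replicate 4, the highest vehicle sample. Sds, serine dehydratase, differed by -0.33 ± 0.19 with wide spread, from 5.17 to 7.03 at 0.54 mg/kg alone. Agxt2, the mitochondrial counterpart of Agxt, differed by 0.03.

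The glycine cleavage system makes one-carbon units from glycine. Its Amt subunit, the aminomethyltransferase, differed by 0.13 ± 0.061 at 54.1 mg/kg and by 0.16 ± 0.061 at 541 mg/kg (adjusted p = 0.509 and 0.372). It ran from 8.56 to 8.89 in vehicle and from 8.72 to 8.96 at 541 mg/kg. Its partners had the opposite sign at 541 mg/kg, with -0.20 ± 0.11 for Gldc, the decarboxylase, and -0.02 ± 0.039 for Gcsh, the carrier protein. Gcsh also had the smallest residual SD of the members, 0.046.

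Aass, which starts lysine breakdown, had medians of 11.15 in vehicle, 10.92 at 5.41 mg/kg, 11.01 at 54.1 mg/kg and 11.15 at 541 mg/kg. Its differences at these doses were -0.19, -0.18 and -0.04, each ± 0.080, and none passed. Gcdh, a later step, differed by 0.02 at 541 mg/kg, while its 2 dimmer probe sets gave -0.14 and -0.08. Dpys and Upb1, of pyrimidine and beta-alanine breakdown, differed by -0.06 ± 0.050 and -0.05 ± 0.058.

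Neighbouring genes of amino acid metabolism outside the 42 were counted from a separate list. Of its 44 genes 38 were measured. None passed at 54.1 or 541 mg/kg. At 541 mg/kg 24 of 38 were lower, against 46.7% of all probe sets and 52.2% of those brighter than the median one. At an unadjusted p under 0.05, 10 of the 38 were lower and 2 higher there, against 4.58% and 4.49% of all probe sets. In the trend 2 of 38 passed, both falling, against 0.715% of all probe sets in either direction. Hao1, the glycolate oxidase that feeds glyoxylate to Agxt, fell by 0.04 per step (adjusted p = 0.00424). Cth, the last enzyme of transsulfuration, fell by 0.04 (adjusted p = 0.0312). Glul, glutamine synthetase, the counterpart of Gls2, differed by -0.31 ± 0.10 at 541 mg/kg (adjusted p = 0.233). Of 13 measured regulators of these pathways none passed. Cebpa, a hepatocyte transcription factor, differed by -0.46 ± 0.18 and the glucocorticoid receptor gene Nr3c1 by -0.29 ± 0.082 at 541 mg/kg (adjusted p = 0.396 and 0.176).

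Hepatocyte markers identified the tissue. The sample means of the 8 measured markers, Alb among them, ran from 13.73 to 13.86 in vehicle and from 13.70 to 13.76 at 541 mg/kg. These markers too were mostly lower at 541 mg/kg, 6 of 8 with a median of -0.04. At 54.1 mg/kg 3 of 8 were lower, with a median of 0.002. Between the 2 highest and the 3 lowest doses all 8 were lower, with a median of -0.02. Periportal markers outside the members (5 measured) had a median difference of -0.13 at 541 mg/kg and 0.08 at 54.1 mg/kg, and their sample means ran from 9.71 to 10.66 in vehicle and from 9.98 to 10.60 at 541 mg/kg. All 6 measured endothelial markers were lower at 541 mg/kg, with a median of -0.16, and their sample means ran from 8.35 to 8.77 in vehicle and from 8.25 to 8.47 at 541 mg/kg. At 54.1 mg/kg 4 of these 6 were higher, with a median of 0.03. Of the other liver cell types, 3 of 7 pericentral and 2 of 5 Kupffer cell markers were lower at 541 mg/kg. So were 5 of 7 stellate cell and 1 of 4 bile duct markers. Lower blood cell markers were 2 of 4 (T cell), 0 of 2 (B cell), 0 of 3 (neutrophil) and 2 of 2 (erythroid). Lower markers of other tissues were 2 of 4 (pancreas), 3 of 4 (kidney) and 0 of 4 (fat). No marker of any of these lists passed the FDR at 54.1 or 541 mg/kg, and their part in the results was not tested. In bulk liver, fewer cells of a type and less RNA per cell cannot be told apart.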

How the data were processed

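Liver RNA of 36 samples was measured on rat 3′ expression arrays. The authors deposited log2 values per probe set, made with RMA and affy per the submitters' processing notes, which give no versions. RMA normalises arrays to one distribution, so a shift of all genes would not be seen; the log base is not stated and was taken as 2. Their values ran from 1.94 to 14.7, and array medians from 5.06 to 5.16. Array number, with 6 samples per group, limits the precision. Groups came from the sample titles. The labels give no animal numbers, so a p-value reflects only how far these samples vary, which may be technical, and they name no batch.

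After 57 control probe sets were left out, 31042 were fitted with limma 3.58.1 in R 4.3.3, with 6 group means and no covariate, and with Benjamini-Hochberg adjustment of the p-values. Trend scores were equal steps in dose order. Gene names came from the array annotation: 20826 probe sets had 1 symbol, 436 several and 9780 none, and 20758 matched RefSeq by Entrez ID. The fit was tested on simulated data. Members given with most values had passed the FDR, had an unadjusted p under 0.01 or led their route. Members and lists were chosen with earlier results of these data known.

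The alternatives were array centring, a filter on dim probe sets, array weights, the replicate number as a block, eBayes with trend and robust options, only the groups compared in the fit, the mean of a gene's probe sets, and leaving out each sample.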

Additional observations from a re-analysis of the deposited data

Results flagged for a closer look

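Single samples stood apart in 5 of the 78 groups examined, those of 13 genes in 6 dose groups, and chance alone flags about 1 in 20 groups. In each, the gap to the nearest sample took most of the group's range. Got1 was 9.217 in replicate 4 of 541 mg/kg, below the next sample at 9.533. Uroc1 was 11.34 in replicate 1 of 0.54 mg/kg, above the next at 11.17. Agxt was 10.55 in vehicle replicate 4, above the next at 10.20. Hibch was 9.504 in replicate 6 of 5.41 mg/kg, below the next at 9.628, and 9.908 in replicate 6 of 54.1 mg/kg, above the next at 9.768.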

How the results depend on the processing

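The counts at 0.05, 0.54 and 5.41 mg/kg stayed at 0 under every alternative. At 54.1 mg/kg 23 probe sets passed, 37 once dim probe sets were filtered out, 64 with array weights and 43 with only the groups compared, and 5 to 36 with 1 sample left out. Glud1 was 1 member past the FDR there with centring, the filter, weights, the replicate block, eBayes with trend and robust options, and the mean of its probe sets, and with 1 sample left out the count was 0 to 1. At 541 mg/kg 48 passed, 83 with the filter, 80 with weights and 31 with only the groups compared, and 18 to 63 with 1 sample left out; the members' count of 1 became 0 with only the groups compared and was 0 to 1 with 1 sample left out. The members' count ran from 1 to 3 between high and low doses, from 1 to 4 in the trend and from 0 to 1 for any difference with 1 sample left out. Ass1 was added between high and low doses by the filter and the block, and in the trend by those and by weights. Centring and the block lost Ddc in the trend.

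Replicate numbers were shared between groups. Deviations of same-numbered samples from their group means had a median r of 0.0125 (from -0.26 to 0.233 over 90 pairs). Samples with different numbers had -0.00437 (from -0.285 to 0.286 over 450 pairs). An r over 0.1 occurred in 24 and 96 of these pairs. A correlation over all probe sets does not show whether same-numbered samples shared a batch. With the replicate block the members past the FDR were 1 at 54.1 mg/kg, 1 at 541 mg/kg, 3 between high and low doses and 3 in the trend.

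Of the 13 genes refitted under the alternatives, signs turned for 2, neither of them called in these comparisons: Uroc1 at 541 mg/kg ran from -0.032 to 0.061 and between high and low doses from -0.026 to 0.032 with 1 sample left out (0.026 with array weights), and Aass between high and low doses from -0.0034 to 0.042. With 1 sample left out the route medians also turned for tyrosine (-0.0215 to 0.0127 at 54.1 mg/kg, -0.0097 to 0.037 at 541 mg/kg), histidine (-0.032 to 0.061 at 541 mg/kg) and lysine (-0.038 to 0.022 at 541 mg/kg), for histidine and lysine between high and low doses and for tyrosine in the trend. The cause of these changes was not tested.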
